A study of Bos taurus with 88 samples.

Results

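A set of 5 genes was followed in the whole blood of newborn calves because they showed some of the largest falls in expression between 72 h and 168 h of age. They are ENSBTAG00000030629, ENSBTAG00000001297, ENSBTAG00000040485, ENSBTAG00000031658 and ENSBTAG00000018189, which is 5 of the 24616 genes in the count tables. The genes were chosen by their fold changes at 168 h versus 72 h in Holstein dairy calves (H) or in calves of Limousin × Friesian cows (LF), so those falls are described here and not tested. The genes are named by Ensembl identifier, since 0 identifiers were paired with a symbol in the tables used, and their functions are therefore not described.

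Jugular blood was taken at 0, 48, 72 and 168 h of age from 22 calves, giving 88 RNAseq libraries. There were 8 H calves, 7 calves of Charolais × Limousin cows (CL) and 7 LF calves, and each calf was labelled at all 4 ages. H calves were separated from the dam and fed her colostrum, at a set share of body weight, by tube and teat on a dairy farm. CL and LF calves suckled their dams in a beef herd, so breed, farm and feeding cannot be told apart between H and beef calves. Between the 72 h and 168 h samples, H calves also moved from single pens and colostrum to a group pen, milk replacer and concentrate. Age, diet and housing therefore cannot be told apart in the fall of H calves. The sires of both beef groups were Aberdeen Angus or Charolais bulls.

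Calves are born almost without circulating antibody, because the bovine placenta does not pass it, and they take up immunoglobulin from colostrum in the first hours of life. Whole blood RNA is a mixture from neutrophils, lymphocytes, monocytes, platelets and immature red cells, and the proportions of these cells shift after birth. In such bulk samples, fewer cells of a type and less RNA per cell cannot be told apart. The cell type of origin of the 5 genes could not be checked by marker genes, since markers are known by symbol.

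Reads on genes ran from 10023822 to 39304404 per library with a median of 22595526.5, so that 3 reads, taken as the lowest level that can be shown, equalled 0.0763 to 0.299 CPM before scaling. Levels are given as CPM (reads on a gene scaled to a common library size) after TMM scaling, a correction for differences in library composition. Values under about the level of 3 reads are not distinguished from 0.

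Before the levels were compared, each library was set against the other libraries of every calf on the 150 genes, members left out, that differed most lastingly between calves. Of the 88 libraries, 83 were most like the other libraries of the calf on their label, with a median mean correlation of 0.897. The other 5 were most like another calf. The library labelled CL calf 1 at 168 h matched LF calf 5 (mean r = 0.50, against 0.22 with its labelled calf), and the library labelled LF calf 5 at 72 h matched CL calf 1 (0.53 against 0.23). The libraries labelled CL calf 2 and CL calf 3 at 168 h each matched the other calf (0.69 against -0.12 and 0.65 against -0.05). Both are CL calves, so an exchange between them would leave the set of CL libraries at 168 h the same. The library labelled LF calf 6 at 168 h matched CL calf 6 (0.80 against 0.25). The labels were kept. Most tests, medians and counts of calves that rest on these libraries are given with and without them, while shares of group sums, correlations and nearest genes are over all libraries. No H library and no 0 h or 48 h library was among them.

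**Figure D1:**
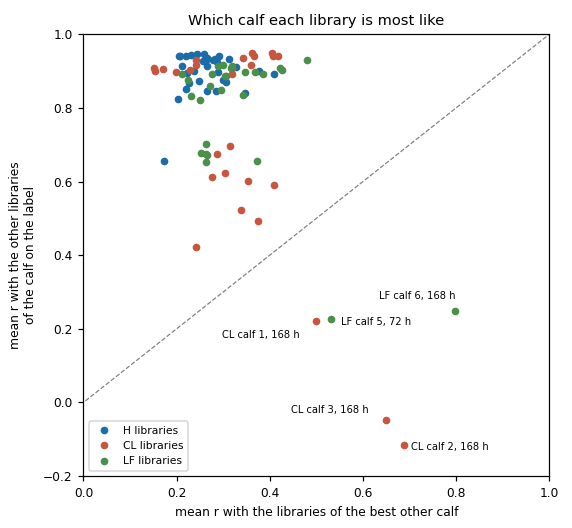
For each of the 88 libraries, the vertical axis gives the mean Pearson correlation with the other libraries of the calf on its label and the horizontal axis the mean correlation with the libraries of the best other calf. The 83 points above the dashed line of equality matched their own calf, and the 5 named points below it matched another calf.

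A second set of libraries stood apart by composition. In the libraries of H calf 6 at 0, 48 and 72 h, the 10 most abundant genes took 38.95 to 51.1% of the reads on genes, against 4.69 to 28.5% in the other 85 libraries. Their TMM factors were 0.401 to 0.582, against 0.777 to 1.204 elsewhere. H calf 6 matched its own calf at every age, and its libraries carried the L numbers 4, 9 and 7, a running number in the labels whose meaning is not given there. This calf had the highest level of all 5 genes among H calves at 0 h, and of every gene but ENSBTAG00000018189 at 48 h and 72 h.

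In H calves ENSBTAG00000030629 stood at 3.53 CPM in the lowest calf, 12.7 in the median and 679 in the highest at 0 h. The corresponding values were 5.54, 15.6 and 1252 CPM at 48 h and 7.07, 15.9 and 1120.3 CPM at 72 h. The median therefore changed little over the first 72 h, while H calf 6 stood far above the next calf at each of these ages (61.5, 90.2 and 52.8 CPM). At 168 h the H values ran from 0.160 to 14.3 CPM with a median of 1.68, and H calves 2, 6 and 8 were the highest with 14.3, 10.99 and 9.74 CPM.

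In CL calves ENSBTAG00000030629 ran from 4.75 to 105.6 CPM at 0 h (median 8.26), from 2.35 to 114.7 at 48 h (median 7.82) and from 3.16 to 472 at 72 h (median 21.3). CL calf 5 was the highest at all 3 ages. At 168 h, 6 CL libraries lay between 0.149 and 0.537 CPM, and the library labelled CL calf 1 gave 64.3 CPM. In LF calves the values ran from 2.14 to 46.8 CPM at 0 h (median 12.2), from 4.08 to 71.1 at 48 h (median 22.9), from 0.444 to 271 at 72 h (median 34.3) and from 0 to 2.26 at 168 h (median 0.320). The lowest LF value at 72 h came from the library labelled LF calf 5, and without it the 6 others ran from 7.33 to 271 CPM (median 39.6). Among the libraries at 168 h that matched their label, the median was 0.212 CPM in 4 CL calves and 0.873 in 6 LF calves. Thus the 2 libraries that matched each other's calf gave the highest CL value at 168 h and the lowest LF value at 72 h. Libraries that matched their label also stood far from their group, such as CL calf 5 (472 CPM) and LF calf 7 (271 CPM) at 72 h.

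The H median of ENSBTAG00000001297 was 1.94 CPM at 0 h (range 0.858 to 19.6), 3.58 at 48 h (1.04 to 98.8), 4.04 at 72 h (2.17 to 176) and 0.566 at 168 h (0.179 to 3.42). The CL median was 1.01 CPM at 0 h (0.265 to 6.90), 1.23 at 48 h (0.339 to 16.7), 6.76 at 72 h (1.02 to 61.9) and 1.04 at 168 h (0.0746 to 9.45). In LF calves it was 1.28 CPM at 0 h (0.652 to 3.66), 1.74 at 48 h (0.648 to 6.24), 1.26 at 72 h (0.148 to 34.4) and 0.282 at 168 h (0.119 to 1.04). Without the libraries that matched another calf, the LF median at 72 h was 2.73 CPM (0.351 to 34.4) and so above that at 48 h, the LF median at 168 h was 0.232, and the CL median at 168 h was 0.745 (0.0746 to 1.04). Of the 3 breeds, CL had the highest median at 72 h with or without them, whereas H calf 6 had the highest single value.

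ENSBTAG00000040485 had a higher median in H than in CL or LF calves at every age. Its H median was 2.21 CPM at 0 h (0.936 to 49.4), 6.65 at 48 h (0.778 to 397), 4.83 at 72 h (0.987 to 143) and 0.944 at 168 h (0.0302 to 2.13). The CL median stayed under 1 CPM at every age, with 0.441, 0.836, 0.417 and 0.171 CPM in order of age, and the highest CL value was 6.41 CPM in CL calf 5 at 48 h. The LF median was 0.379, 1.57, 0.315 and 0.223 CPM at the 4 ages, with highest values of 2.65, 9.77, 10.8 and 1.85 CPM. Without the libraries that matched another calf, the LF median was 0.501 CPM at 72 h and 0.225 at 168 h, and the CL values at 168 h ran from 0.112 to 0.189 (median 0.169) where all 7 reached 2.82. The beef values at 0 h, 72 h and 168 h rested on few reads, since most of these libraries had under 30.

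ENSBTAG00000031658 had the largest ratio of the 72 h to the 0 h median of the 5 genes in every breed. Its H median was 1.57 CPM at 0 h (0.437 to 83.4), 9.68 at 48 h (1.31 to 406), 17.0 at 72 h (2.41 to 544) and 0.737 at 168 h (0 to 18.8). The CL median was 0.622 CPM at 0 h (0.232 to 6.61), 0.602 at 48 h (0.301 to 18.1), 12.3 at 72 h (1.07 to 99.1) and 1.11 at 168 h (0.0746 to 28.2). In LF calves it was 0.492 CPM at 0 h (0.219 to 1.24), 2.04 at 48 h (0.763 to 6.31), 5.13 at 72 h (0.333 to 60.2) and 0.247 at 168 h (0 to 2.80). The CL maximum at 168 h was the library labelled CL calf 1, and the 4 CL libraries that matched their label reached 1.502 CPM (median 0.885). The LF values without such libraries had a median of 5.73 CPM at 72 h (1.79 to 60.2) and 0.141 at 168 h (0 to 1.54). The median was already higher at 48 h in H and LF calves, but only at 72 h in CL calves.

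ENSBTAG00000018189 was highest in other calves than these genes at 48 h and 72 h. In H calves its median was 0.295 CPM at 0 h (0.0544 to 1.66), 1.75 at 48 h (0.669 to 9.45), 1.51 at 72 h (0.315 to 19.3) and 0.249 at 168 h (0.0321 to 1.08). In CL calves it was 0.108 CPM at 0 h (0.0444 to 0.354), 3.70 at 48 h (0.345 to 15.6), 1.01 at 72 h (0.237 to 12.6) and 0.373 at 168 h (0.171 to 0.828). In LF calves it was 0.428 CPM at 0 h (0 to 0.642), 2.70 at 48 h (1.26 to 16.2), 4.32 at 72 h (1.30 to 13.8) and 0.318 at 168 h (0.0862 to 0.633). Without the libraries that matched another calf, the LF medians were 3.79 CPM at 72 h and 0.319 at 168 h, and the CL median at 168 h was 0.287 (0.171 to 0.568).

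**Figure D2:**
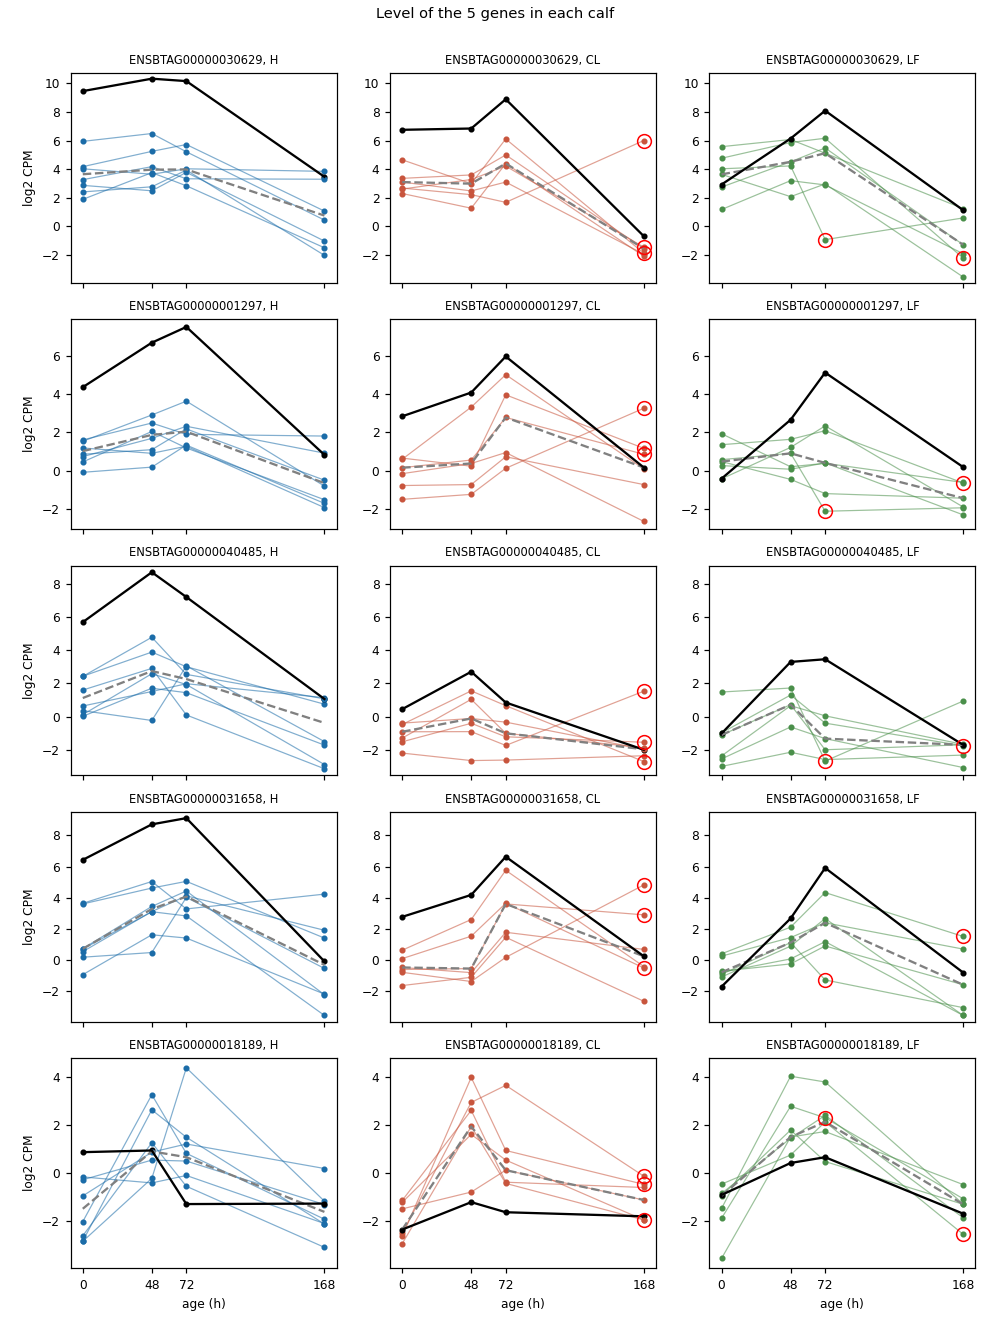
Log2 CPM (vertical, prior count 2) of each of the 5 genes against age in hours (horizontal), with 1 panel per gene and breed. Thin coloured lines join the libraries of 1 calf, the black line is H calf 6, CL calf 5 or LF calf 7, the dashed grey line joins the group medians, and red circles mark the 5 libraries that matched another calf. At 72 h the black line is highest in every panel of the upper 4 genes and in no panel of ENSBTAG00000018189.

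The age of the highest level differed between the genes when each calf was read on its own. ENSBTAG00000031658 was highest at 72 h in 17 of 22 calves, ENSBTAG00000001297 in 15 and ENSBTAG00000030629 in 13. ENSBTAG00000040485 was instead highest at 48 h in 17 of 22 calves. ENSBTAG00000018189 was highest at 48 h in 13 calves and at 72 h in 9. In CL calves the peak of ENSBTAG00000030629, ENSBTAG00000001297 and ENSBTAG00000031658 was at 72 h in 6 of 7 calves each and never at 48 h, whereas in H calves ENSBTAG00000030629 peaked at 48 h in 4 calves and at 72 h in 4. The 1 calf with a peak at 168 h for 4 of the genes was CL calf 1, which rests on a library that matched another calf. Among the 17 calves with no such library, 0 had a peak at 168 h for any of the 5 genes. In these calves the peak was at 72 h in 14 for ENSBTAG00000031658, 12 for ENSBTAG00000001297 and 10 for ENSBTAG00000030629, and at 48 h in 13 for ENSBTAG00000040485. For ENSBTAG00000018189 it was at 48 h in 10 and at 72 h in 7, and in the 4 CL calves the peak of the first 3 genes was at 72 h in 4 of 4.

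The first step, from 0 h to 48 h, used none of the samples that chose the genes. It was measured in the same calves, which tended to keep their rank between ages, so it was not independent of that choice. The step was tested with edgeR's quasi-likelihood test over all genes. Genes whose fold change was 1.5 or more and whose Benjamini-Hochberg adjusted p was under 0.05 were called differentially expressed (DEG). In H calves, 1 of the 5 genes rose, against a background of 3.97% of the 12508 genes tested. This was ENSBTAG00000018189, with a log2 fold change of 2.73 ± 0.71 (SE, n = 8 per age, edgeR adjusted p = 0.020), and it was higher at 48 h in 7 of 8 calves. The call was lost when H calf 3, 4, 7 or 8 was left out (log2 fold change 2.07 without H calf 3). At 0 h this gene had only 3, 2, 1 and 1 reads in H calves 3, 4, 5 and 8, so its level at birth was near the limit of depth.

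The other 4 genes were higher at 48 h in 6 to 8 of the 8 H calves without passing this test. Their log2 fold changes were 0.86 ± 1.37 for ENSBTAG00000030629, 1.98 ± 1.01 for ENSBTAG00000001297, 2.85 ± 1.31 for ENSBTAG00000040485 and 2.18 ± 1.29 for ENSBTAG00000031658 (edgeR adjusted p from 0.19 to 0.76). When each calf was compared with itself, by adding the calf as a block, 3 of these became DEG, where 5.93% of all genes rose. ENSBTAG00000031658 rose by 1.92 ± 0.25 (edgeR adjusted p = 0.00033), being higher in 8 of 8 calves, ENSBTAG00000040485 by 1.77 ± 0.30 (adjusted p = 0.0015) and ENSBTAG00000001297 by 1.03 ± 0.26 (adjusted p = 0.014). ENSBTAG00000030629 stayed outside the threshold (0.61 ± 0.21, adjusted p = 0.066).

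In LF calves 2 of the 5 genes rose from 0 h to 48 h, with a background of 7.37% of 12794 genes. ENSBTAG00000018189 rose by 3.80 ± 0.67 (log2, SE, n = 7 per age, edgeR adjusted p = 0.0017) and ENSBTAG00000031658 by 2.07 ± 0.50 (adjusted p = 0.010), each in 7 of 7 calves. For ENSBTAG00000018189, all 7 LF libraries at 48 h lay above all 7 at 0 h. Both stayed DEG without LF calf 7, the highest calf for ENSBTAG00000031658 (log2 fold change 1.55 for that gene and 4.05 for ENSBTAG00000018189). ENSBTAG00000040485 was also higher in 7 of 7 LF calves, with 2.12 ± 0.86 (adjusted p = 0.096), and it became a DEG with the calf as a block (2.40 ± 0.53, adjusted p = 0.010, with 8.31% of genes higher) or without LF calf 5 (3.35 ± 0.87, adjusted p = 0.019). ENSBTAG00000030629 (1.06 ± 0.66) and ENSBTAG00000001297 (0.48 ± 0.50) did not pass.

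In CL calves 0 of the 4 genes that passed the filter on low counts were DEG at 48 h versus 0 h by edgeR, with a background of 7.03% higher and 14.9% in either direction among 12852 genes. One of the 4, ENSBTAG00000040485, had an unadjusted p under 0.05 (1.79 ± 0.72, adjusted p = 0.067), and it was a DEG with the calf as a block (1.43 ± 0.38, adjusted p = 0.013), by DESeq2 (1.81 ± 0.68, adjusted p = 0.023) and without CL calf 7 (1.85 ± 0.64, edgeR adjusted p = 0.042). The background of higher DEG was 7.91% with the block and 7.63% by DESeq2. ENSBTAG00000031658 was a DEG only with the block (0.91 ± 0.33, adjusted p = 0.049). ENSBTAG00000030629 differed by -0.13 ± 0.99 by edgeR and by -1.73 ± 0.70 by DESeq2, which called it lower (adjusted p = 0.036). ENSBTAG00000018189, at 1 to 9 reads per CL library at 0 h, did not pass the filter. Without the filter it had a log2 fold change of 4.79 ± 0.84 (edgeR adjusted p = 0.0011) and was higher in 7 of 7 CL calves. Without CL calf 5 it passed the filter and was called (4.90 ± 0.75, edgeR adjusted p = 0.00066).

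**Figure D3:**
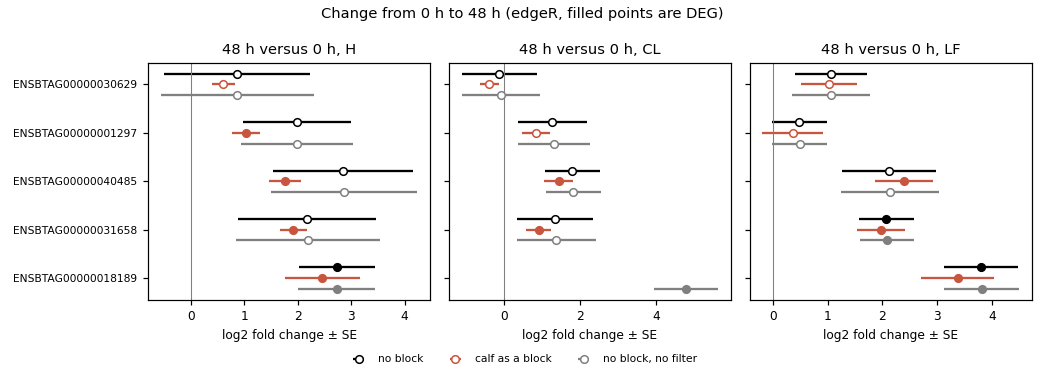
Log2 fold change of 48 h versus 0 h (horizontal, with SE) for the 5 genes in H, CL and LF calves. Black points are from the fit without a block, red points from the fit with the calf as a block and grey points from the fit without a filter on low counts, and filled points are DEG. With the block the error bars of the 4 upper genes are shorter in H and CL calves, and ENSBTAG00000018189 in CL calves has a point only without the filter.

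The change from 0 h to 48 h was not shown to differ between breeds. Of the 5 genes, 0 passed in H versus CL, H versus LF or CL versus LF by the edgeR interaction test, where 0% of all genes passed. None had an unadjusted edgeR p under 0.05, and the block by calf also called 0. DESeq2 called 0 as well, although it gave no adjusted p in CL versus LF for any gene but ENSBTAG00000030629. The interaction nearest the threshold was ENSBTAG00000018189 in H versus CL calves (-2.03 ± 1.09, unadjusted p = 0.073, edgeR adjusted p = 0.84).

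The step from 48 h to 72 h can be tested in CL calves, where genes were called only with the calf as a block. The genes were not tested against one another. By edgeR without a block, 0 of the 5 genes were DEG, with 0.00782% of 12792 genes called at all, and only ENSBTAG00000031658 had an unadjusted p under 0.05. DESeq2 also called 0. With the calf as a block, 4.14% of genes rose and 0.75% fell. ENSBTAG00000031658 then rose by 2.82 ± 0.24 (edgeR adjusted p = 0.0019) and ENSBTAG00000001297 by 1.98 ± 0.32 (adjusted p = 0.0094), each in 7 of 7 calves. ENSBTAG00000040485 fell by 1.17 ± 0.27 on the log2 scale with the block (adjusted p = 0.019) and was lower in 6 of 7 calves. ENSBTAG00000030629 was higher in 6 of 7 CL calves (1.6 ± 0.47 with the block, adjusted p = 0.062), and ENSBTAG00000018189 was lower in 5 of 7 (-1.32 ± 0.63, adjusted p = 0.19).

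In H calves the same step gave median within-calf changes of 0.10 for ENSBTAG00000030629, 0.68 for ENSBTAG00000001297, -0.76 for ENSBTAG00000040485, 0.41 for ENSBTAG00000031658 and -0.59 for ENSBTAG00000018189, on the log2 CPM scale. In LF calves they were 0.29, 0.33, -0.70, 1.16 and 0.24. Without the library labelled LF calf 5 at 72 h, ENSBTAG00000031658 was higher at 72 h in 6 of 6 LF calves (median change 1.47) and ENSBTAG00000040485 was lower in 5 of 6 (median -0.65). The medians of ENSBTAG00000030629, ENSBTAG00000001297 and ENSBTAG00000018189 were then 0.59, 0.39 and 0.24. These H and LF values use 72 h samples that chose the genes and are given without a test.

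For most of the genes the mean of each group at 72 h was carried by few calves. H calf 6 held 88.1% of the summed CPM of the 8 H calves for ENSBTAG00000030629, 84.6% for ENSBTAG00000001297, 81.4% for ENSBTAG00000040485 and 83.4% for ENSBTAG00000031658, where an even split would give 12.5%. Computed without TMM factors, which were low in this calf, the shares were 77.0, 71.5, 66.3 and 69.3%. For each of these genes, 7 of the 8 H calves lay below the group mean. The mean of ENSBTAG00000030629 was 158.9 ± 389 CPM (SD, n = 8) with H calf 6 and 21.6 CPM without it.

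CL calf 5 held 75.5% of the CL sum of ENSBTAG00000030629 at 72 h, 51.3% of ENSBTAG00000001297, 53.5% of ENSBTAG00000031658 and 34.2% of ENSBTAG00000040485, where an even split would give 14.3%. With CL calf 4 it held 77.7% of ENSBTAG00000001297 and 82.7% of ENSBTAG00000031658. LF calf 7 held 61.9, 73.9, 82.5 and 62.5% of the LF sums of ENSBTAG00000030629, ENSBTAG00000001297, ENSBTAG00000040485 and ENSBTAG00000031658. ENSBTAG00000018189 was carried by other calves, with 66.6% in H calf 5, 68.5% in CL calf 1 and 40.3% in LF calf 4.

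Ranking the breeds by mean or by median at 72 h gave different orders for some of the genes. For ENSBTAG00000030629 the means were 158.9 CPM in H, 89.4 in CL and 62.6 in LF calves, while the medians ran the other way, with 15.9 in H, 21.3 in CL and 34.3 in LF. Leaving out the highest calf of each breed gave means of 21.6, 25.6 and 27.8 CPM. Without the library labelled LF calf 5 the LF mean was 73.0 and the LF median 39.6 CPM, and both orders were the same. For ENSBTAG00000001297 the H mean of 26 CPM exceeded the CL mean of 17.2, but the H median of 4.04 was under the CL median of 6.76. For ENSBTAG00000040485 and ENSBTAG00000031658, H calves had both the highest mean and the highest median. For ENSBTAG00000018189, LF calves had both (mean 4.88 and median 4.32 CPM).

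**Figure D4:**
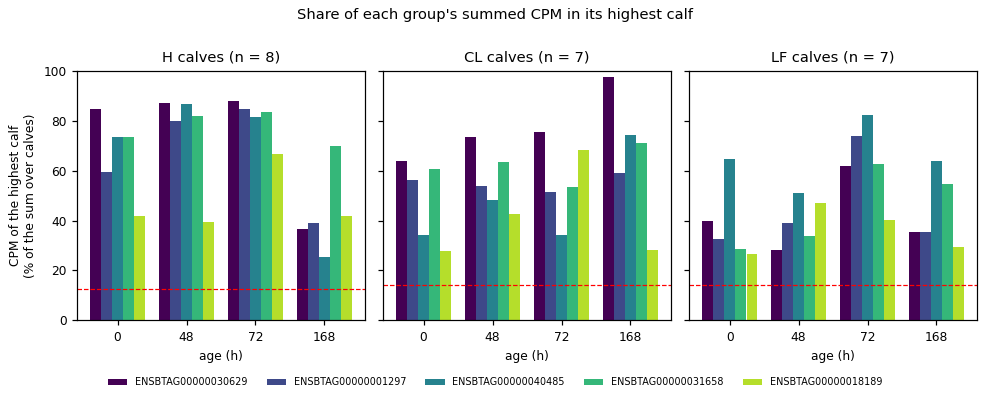
Share of a group's summed CPM held by its highest calf (vertical, %) at each age (horizontal, h), with 1 bar per gene and the even split as a dashed red line (12.5% for 8 calves, 14.3% for 7). In H calves the first 4 genes stand at 59.5 to 88.1% from 0 to 72 h, and the tallest bar, 97.6% for ENSBTAG00000030629 in CL calves at 168 h, is the library labelled CL calf 1.

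The same calves tended to be highest at successive ages. H calf 6 was highest for 4 of the genes at 0, 48 and 72 h, CL calf 5 for the same 4 genes at 0, 48 and 72 h, and LF calf 7 for these genes at 48 h and 72 h but for none of them at 0 h. In LF calf 7 all 4 genes were higher at 72 h than at 0 h. ENSBTAG00000031658 stood at 0.219 CPM at 0 h, the lowest of the LF calves, then at 6.31 at 48 h and 60.2 at 72 h. At 168 h LF calf 7 had 0.484 CPM of this gene and H calf 6 had 0.865, and other calves were higher. For the other 3 genes at 168 h, LF calf 7 was again the highest LF calf for ENSBTAG00000001297 (1.04 CPM), and H calf 6 was at rank 2 of 8 for ENSBTAG00000030629 (10.99 CPM) and at rank 3 of 8 for ENSBTAG00000001297 and ENSBTAG00000040485.

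Levels before 72 h were compared between breeds with edgeR. H calf 6, the highest H calf for 4 of the genes at 72 h, was also highest for them at 0 h and 48 h. The choice of the genes by H or LF samples can therefore favour higher levels in those breeds at these ages. At 0 h, ENSBTAG00000040485 was higher in H than in CL calves by 3.95 ± 1.00 (log2, SE, 8 H and 7 CL calves, adjusted p = 0.0078), 1 of the 4 genes tested, with a background of 11.4% higher in H among 12678 genes. It stayed a DEG without H calf 6, with 2.25 ± 0.53 (adjusted p = 0.0054). Against LF calves at 0 h, 2 of the 5 genes were higher in H calves, where the background was 7.49% of 12698 genes. ENSBTAG00000031658 differed by 4.45 ± 1.12 (adjusted p = 0.016), and by 2.77 ± 0.73 without H calf 6 (adjusted p = 0.023). ENSBTAG00000040485 differed by 3.69 ± 1.06 (adjusted p = 0.028), and its call was lost without H calf 6 (2.04 ± 0.71, adjusted p = 0.066) and without LF calf 2, 3, 4 or 7.

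At 48 h, ENSBTAG00000040485 was higher in H than in CL calves by 4.92 ± 1.41 (edgeR adjusted p = 0.014) and ENSBTAG00000031658 by 3.92 ± 1.35 (adjusted p = 0.034), where 11.1% of 12719 genes were higher in H. Without H calf 6 the first was 2.23 ± 0.82 and still a DEG (adjusted p = 0.045), and the second was 1.65 ± 0.94 and was not (adjusted p = 0.18). The second call was also lost without any 1 of 6 CL calves, CL calf 5 excepted. Against LF calves, 1 of the 5 genes was higher in H calves at 48 h, with a background of 2.91% of 12682 genes. This was ENSBTAG00000031658 with 4.55 ± 1.18 (adjusted p = 0.039), and 10 of the 15 fits that left out 1 calf lost the call, among them that without H calf 6 (2.26 ± 0.64, adjusted p = 0.056) and those without any 1 LF calf.

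ENSBTAG00000030629, ENSBTAG00000001297 and ENSBTAG00000018189 passed in none of these edgeR fits of all calves. The H versus CL difference of ENSBTAG00000030629 at 0 h was 2.09 ± 1.24 with H calf 6 and -0.49 ± 0.81 without it, and at 48 h it was 3.02 ± 1.37 and 0.21 ± 0.88. Leaving out CL calf 5 instead made it a DEG at 48 h (4.69 ± 1.42, adjusted p = 0.021) and made ENSBTAG00000001297 a DEG at 0 h (2.12 ± 0.72, adjusted p = 0.036) and ENSBTAG00000031658 a DEG at 0 h (4.30 ± 1.27, adjusted p = 0.020). The last of these was 3.15 ± 1.19 over all calves (adjusted p = 0.053), and it also became a DEG without H calf 1, 4 or 5 (3.29 to 3.30, adjusted p from 0.036 to 0.048). Between CL and LF calves, edgeR called 0 of the 3 genes tested at 0 h and 0 of 5 at 48 h, none had an unadjusted p under 0.05, DESeq2 called 0, and the background was 0% at both ages.

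The fall after 72 h is what chose the genes, and its values are given as a description. In H calves the edgeR log2 fold changes of 168 h versus 72 h were -5.08 for ENSBTAG00000030629, -4.73 for ENSBTAG00000031658, -4.67 for ENSBTAG00000001297 and -4.46 for ENSBTAG00000040485, which are the 4 largest falls among 12541 genes, and -3.49 for ENSBTAG00000018189, the 20th largest. The background of lower DEG was 5.81%. The next largest fall in H calves was that of ENSBTAG00000011300 (-4.37). Without H calf 6 the first 4 were -2.47, -2.14, -2.29 and -2.47 in the same order, and ENSBTAG00000018189 was -3.65. ENSBTAG00000030629, ENSBTAG00000001297 and ENSBTAG00000040485 were lower at 168 h in 8 of 8 H calves, and the other 2 genes in 7 of 8.

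In LF calves the log2 fold changes were -6.09 for ENSBTAG00000030629, the largest fall among 12738 genes, -4.26 for ENSBTAG00000031658, -3.99 for ENSBTAG00000001297 and -3.97 for ENSBTAG00000018189, at places 4, 6 and 7. The background of lower DEG was 10.6%, and ENSBTAG00000040485 did not pass the filter. The gene in place 2 was ENSBTAG00000026732 (-4.86), and the next DEG after the members that fell in every LF calf was ENSBTAG00000005431 (-3.96). Without the 2 LF libraries that matched another calf, the values of the same 4 genes were -6.13, -5.35, -4.28 and -3.81. Without LF calf 7 they were -5.27, -3.0, -2.69 and -4.07. ENSBTAG00000030629 and ENSBTAG00000001297 were lower at 168 h in 6 of 7 LF calves, and ENSBTAG00000031658 and ENSBTAG00000018189 in 7 of 7. ENSBTAG00000040485 was lower in 4 of 7 and higher in 3. In the 5 LF calves whose libraries at both ages matched their label, it was lower in 3 and higher in 2, and the other genes were lower in 5 of 5.

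The size of the fall varied widely between calves. For ENSBTAG00000030629 the change in log2 CPM from 72 h to 168 h ran from -6.70 in H calf 6 to -0.03 in H calf 8, with a median of -4.72. For ENSBTAG00000031658 it ran from -9.20 in H calf 6 to a gain of 0.95 in H calf 8. In the 168 h library of H calf 8 the 10 most abundant genes took 22.4% of the reads, the highest share of the H group at that age (median 6.79%). H calf 8 had 18.8 CPM of ENSBTAG00000031658 there, 70% of the H sum at 168 h, and the highest H level of ENSBTAG00000001297 (3.42 CPM). The part of library composition in these values was not tested.

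No library labelled CL was used to choose the genes, so the CL fall was tested. Among the LF samples of that choice, those labelled LF calf 5 at 72 h and LF calf 6 at 168 h matched CL calves. The CL test is thus apart from the choice only by label. Over all 7 calves, 0 of the 4 genes that passed the filter were DEG by edgeR at 168 h versus 72 h, with a background of 0.0157% lower among 12770 genes. Among them, 2 had an unadjusted p under 0.05, namely ENSBTAG00000001297 (-2.95 ± 1.04, adjusted p = 0.13) and ENSBTAG00000018189 (-2.65 ± 0.80, adjusted p = 0.11). ENSBTAG00000030629 was -3.27 ± 1.57 (adjusted p = 0.22) and ENSBTAG00000031658 was -2.24 ± 1.19 (adjusted p = 0.25). DESeq2 called 3 of the genes, ENSBTAG00000030629 (-5.26 ± 1.22), ENSBTAG00000001297 (-2.93 ± 0.98) and ENSBTAG00000018189 (-2.67 ± 0.72). It was run with its default replacement of outlying counts, so single high calves can weigh less in its fits. With the calf as a block edgeR called ENSBTAG00000018189 (-1.85 ± 0.45, adjusted p = 0.029). The background of lower DEG was 4.09% by DESeq2 and 4.46% with the block.

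These values depended on the CL libraries at 168 h that matched another calf. Those labelled CL calf 2 and CL calf 3 matched each other, so an exchange between them would not alter a fit without a block. Leaving them out also removed the second highest CL values at 168 h of ENSBTAG00000031658 (7.43 CPM) and ENSBTAG00000001297 (2.17 CPM). Without all 3 libraries, ENSBTAG00000030629 fell by 8.31 ± 1.87 on the log2 scale (7 calves at 72 h and 4 at 168 h, edgeR adjusted p = 0.045, background 3.39% lower). ENSBTAG00000001297 was then -4.71 ± 1.37 and ENSBTAG00000031658 -4.99 ± 1.44, both with adjusted p of 0.06 to 2 decimals, and ENSBTAG00000018189 was -3.0 ± 1.09. Leaving out CL calf 1 alone at both ages gave -8.60 ± 1.29 for ENSBTAG00000030629 (adjusted p = 0.021) and -4.21 ± 0.99 for ENSBTAG00000001297 (adjusted p = 0.038), with 3.21% of genes lower. Leaving out CL calf 5 instead gave -1.23 ± 1.43 and -2.0 ± 1.04. In the 4 CL calves whose 168 h library matched its label, ENSBTAG00000030629, ENSBTAG00000001297, ENSBTAG00000031658 and ENSBTAG00000018189 were lower at 168 h in 4 of 4, with median within-calf changes of -6.52, -4.25, -5.15 and -0.73. ENSBTAG00000040485 was lower in 3 of 4 (median -1.25). Over all 7 CL calves as labelled, the first 4 genes were lower in 6, 6, 6 and 7 calves, with medians of -6.49, -2.78, -4.12 and -1.41. ENSBTAG00000040485 was lower in 5 of 7 (median -0.87).

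At 168 h the genes differed in how their level compared with birth. In CL calves 0 of the 3 genes that passed the filter were DEG at 168 h versus 0 h by edgeR, with a background of 15.5% in either direction among 12876 genes, and none had an unadjusted p under 0.05. ENSBTAG00000030629 was -1.36 ± 1.38 over all calves. It was called with the block (-4.87 ± 1.44, adjusted p = 0.037), by DESeq2 (-4.46 ± 0.99) and without the 3 libraries in question (-6.43 ± 1.35, edgeR adjusted p = 0.0050), where 8.49, 9.17 and 10.5% of genes were lower DEG. It was -6.69 ± 1.00 without CL calf 1 (adjusted p = 0.00040) and 0.12 ± 1.37 without CL calf 5. Without those libraries ENSBTAG00000040485, which did not pass the filter over all CL calves, was called lower than at birth too (-1.73 ± 0.56, edgeR adjusted p = 0.034). That call rested on 6, 5, 5 and 3 reads in the 4 libraries left at 168 h, against 4 to 35 reads at 0 h, so it is near the limit of depth. ENSBTAG00000031658 was 1.82 ± 1.08 over all CL calves and -0.95 ± 0.91 without the 3 libraries, passing in neither fit. ENSBTAG00000018189, which did not pass the filter, was higher at 168 h than at birth in 6 of 7 CL calves (median within-calf change 0.55) and in 4 of 4 whose library matched its label (0.54).

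In H and LF calves, ENSBTAG00000030629 was likewise lower at 168 h than at birth, in 7 of 8 and 7 of 7 calves, with median within-calf log2 changes of -3.64 and -4.04. ENSBTAG00000001297 was lower in 6 of 8 H and 6 of 7 LF calves (-1.79 and -2.0). ENSBTAG00000040485 was lower in 7 of 8 H and 5 of 7 LF calves (-1.80 and -0.54), and ENSBTAG00000031658 in 6 of 8 and 4 of 7 (-1.72 and -0.86). ENSBTAG00000018189 was higher than at birth in 4 of 8 H calves and 3 of 7 LF calves (median changes -0.19 and -0.36). Without the library labelled LF calf 6, the LF medians were -3.74 for ENSBTAG00000030629, -2.21 for ENSBTAG00000001297, -0.53 for ENSBTAG00000040485, -1.5 for ENSBTAG00000031658 and -0.09 for ENSBTAG00000018189. The numbers of LF calves lower were then 6, 5, 4, 4 and 3 of 6. These H and LF values share the 168 h samples that chose the genes and carry no test.

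A subset of 4 genes moved together over the 88 libraries. Pearson's r of log2 CPM between ENSBTAG00000030629, ENSBTAG00000001297, ENSBTAG00000040485 and ENSBTAG00000031658 ran from 0.67 to 0.89, and the pair ENSBTAG00000001297 and ENSBTAG00000031658 had the highest value. ENSBTAG00000018189 gave 0.17 to 0.26 with the other 4, and -0.19 to 0.02 once the mean of each breed and age was removed. These points share calves and libraries, so the correlations are given as a description.

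The 4 genes also followed library composition. The correlation of log2 CPM with the share of reads taken by the 10 most abundant genes was 0.65 for ENSBTAG00000030629, 0.80 for ENSBTAG00000001297, 0.73 for ENSBTAG00000040485 and 0.78 for ENSBTAG00000031658 (Spearman's rho 0.71, 0.83, 0.71 and 0.84, 88 libraries). Without the 3 libraries of H calf 6 the Pearson values were 0.57, 0.78, 0.55 and 0.76 over 85 libraries. ENSBTAG00000018189 gave 0.08 (rho 0.28). The calves highest for the 4 genes at 72 h were also highest in their group for this share, with 51.1% in H calf 6 (group median 11.7%), 28.5% in CL calf 5 (9.14%) and 20.5% in LF calf 7 (8.75%). The part of composition in the levels of the 4 genes was not tested.

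**Figure D5:**
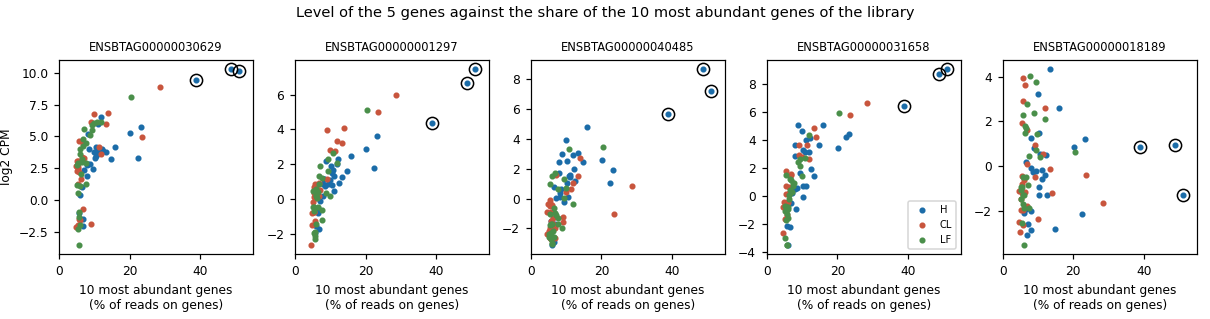
Log2 CPM of each gene (vertical) against the share of reads on genes taken by the 10 most abundant genes of the library (horizontal, %), with 1 point per library coloured by breed and the H calf 6 libraries at 0, 48 and 72 h circled. The first 4 genes are higher in libraries with a larger share (r from 0.65 to 0.80), and for ENSBTAG00000018189 r was 0.08.

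Across the series, the genes nearest in pattern differed from member to member. By Pearson's r of log2 CPM over the 88 libraries and among 13796 other genes, ENSBTAG00000001297 was most like ENSBTAG00000011300 (0.98), ENSBTAG00000032206 (0.96) and ENSBTAG00000001610 (0.96). ENSBTAG00000031658 was most like ENSBTAG00000045887 (0.95), ENSBTAG00000021416 (0.94) and ENSBTAG00000011439 (0.93). ENSBTAG00000040485 was nearest to ENSBTAG00000047356 (0.89), ENSBTAG00000047847 (0.88) and ENSBTAG00000006550 (0.87), and ENSBTAG00000030629 to ENSBTAG00000047084 (0.84), ENSBTAG00000026732 (0.84) and ENSBTAG00000001610 (0.83). ENSBTAG00000018189 had 0 genes above 0.8, and its nearest were ENSBTAG00000005793 (0.80), ENSBTAG00000017273 (0.78) and ENSBTAG00000014365 (0.77).

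The number of genes with r above 0.8 was highest for ENSBTAG00000001297, with 120, followed by ENSBTAG00000031658, and was 28 for ENSBTAG00000040485 and 13 for ENSBTAG00000030629. ENSBTAG00000011300 and ENSBTAG00000026732, named above as the next largest falls in H and LF calves, were thus among the genes nearest to ENSBTAG00000001297 and ENSBTAG00000030629. All 5 members varied far more between calves of a group than most genes. The SD of log2 CPM within breed and age was 2.24 for ENSBTAG00000030629, 2.13 for ENSBTAG00000031658, 1.78 for ENSBTAG00000040485, 1.71 for ENSBTAG00000001297 and 1.28 for ENSBTAG00000018189, against a median of 0.348 over 13801 genes. Between 97.5 and 99.8% of genes had a smaller SD than these 5. The SD includes the H and LF groups at 72 h and 168 h that chose the genes. A choice by mean fold change can favour genes carried by 1 calf, so this spread is a description.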

How the data were processed

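Whole blood RNA of 88 samples had been sequenced as single-end reads. The authors trimmed reads with cutadapt, aligned them to the UMD3.1 cattle genome with STAR and deposited raw read counts per Ensembl gene, unstranded and for each strand. Of the unstranded reads, 50.6% and 49.8% were counted on each strand, so the unstranded count was used. Of all reads, 30.6 to 73.9% were not assigned to a gene, and genes with near-identical copies or overlapping neighbours can be miscounted.

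Breed, age and calf came from the labels. The 5 genes, the comparisons and the marker lists were chosen with earlier results of these data known. The marker lists were not applied, since they hold symbols. Each comparison was fitted in edgeR 4.0.16 (R 4.3.3) by the robust quasi-likelihood test on the groups compared alone, after TMM scaling and edgeR's filter on low counts, with p adjusted over all genes. Log2 CPM used a prior count of 2. The named genes were the members, the 3 most correlated genes of each, and the next largest falls.

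Calves were paired by the tag number in the labels, a field apart from the RNA number, and 83 of 88 libraries matched their calf. Chi-square tests of 3828 pairs of libraries found 0 identical (smallest chi-square per degree of freedom 32.0, so none counted as a repeat). Alternatives were DESeq2 1.42.0, RLE scaling, no filter, the calf as a block, all 88 samples in 1 fit, omission of the 9 samples marked R or of each calf and, added after seeing the data, of the 5 libraries that matched another calf. The fits were tested on simulated counts drawn without calf effects, so that test does not cover genes carried by 1 calf. Floors cover counting error only.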

Additional observations from a re-analysis of the deposited data

Results flagged for a closer look

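Within each breed and age, the highest and lowest calf of each gene were compared with the next one on the log2 CPM scale by Dixon's ratio. Of 60 groups tested, 11 held a calf that stood apart. The threshold is one that about 5% of groups pass by chance, and groups of the same calves are not independent. This rate does not hold here, since the genes were chosen by H and LF values at 72 h and 168 h. Some of the groups flagged below are among these, so the number is a description.

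H calf 6 stood apart as the highest H calf for ENSBTAG00000030629 at 72 h (1120.3 CPM, next calf 52.8), for ENSBTAG00000001297 at 0 h (19.6 CPM), 48 h (98.8 CPM) and 72 h (176 CPM), for ENSBTAG00000040485 at 0 h (49.4 CPM) and 72 h (143 CPM) and for ENSBTAG00000031658 at 72 h (544 CPM). CL calf 5 stood apart for ENSBTAG00000030629 at 48 h (114.7 CPM, next calf 11.9). The library labelled CL calf 1 at 168 h, which matched LF calf 5, stood apart for ENSBTAG00000030629 (64.3 CPM) and ENSBTAG00000040485 (2.82 CPM). LF calf 5 at 168 h stood apart for ENSBTAG00000040485 (1.85 CPM). ENSBTAG00000018189 had 0 such calves.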

How the results depend on the processing

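Direction did not reverse for any called value under the alternatives run, but the number of the 5 genes called did change. At 48 h versus 0 h in H calves (1 called), DESeq2 and the fit of all 88 samples called 2, the block by calf 4 and the fit without the R samples 0. In CL calves (0 called), the numbers were 2 by DESeq2 and by the block and 1 without the filter, without the R samples and with all 88 samples. In LF calves (2 called), all 88 samples in 1 fit called 1. CL calves at 72 h versus 48 h (0 called) gave 3 with the block. CL calves at 168 h versus 72 h (0 called) gave 3 by DESeq2 and 1 with the block, without the libraries that matched another calf, and with both. CL calves at 168 h versus 0 h (0 called) gave 1 by DESeq2 and by the block, and 2 without those libraries, with or without the block. For H versus CL at 0 h (1 called), DESeq2 called 3 and all 88 samples 2. H versus LF at 0 h (2 called) and H versus CL at 48 h (2 called) gave 1 without the filter. H versus LF at 48 h (1 called) gave 2 by DESeq2 and by all 88 samples and 0 without the filter. RLE scaling changed none of these counts, and the causes were not tested. DESeq2 was run with its default replacement of outlying counts. At 48 h versus 0 h in H calves its log2 fold changes for ENSBTAG00000030629, ENSBTAG00000001297, ENSBTAG00000040485 and ENSBTAG00000031658 were 0.53, 0.80, 1.53 and 1.32. By edgeR they were 0.86, 1.98, 2.85 and 2.18 over all calves, and 0.60, 0.91, 1.78 and 1.58 without H calf 6.

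Leaving out each calf in turn gave 0 to 1 genes called at 48 h versus 0 h in H and in CL calves and 2 to 3 in LF calves, 0 to 2 at 168 h versus 72 h and 0 to 1 at 168 h versus 0 h in CL calves. Between breeds it gave 1 to 3 for H versus CL at 0 h and at 48 h, 1 to 2 for H versus LF at 0 h and 0 to 1 for H versus LF at 48 h. The block by calf changed no call other than those given with each comparison. Values at 0 to 3 reads are at the limit of this depth. They include some beef libraries for ENSBTAG00000040485 and ENSBTAG00000018189 at 0 h and 168 h. Some H libraries are also among them, for ENSBTAG00000018189 at 0 h and for ENSBTAG00000040485 and ENSBTAG00000031658 at 168 h. Tests of these genes there rest on the other libraries.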
